A study of Mus musculus with 24 samples.

Results

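Adipokines are the hormones and other signalling proteins that fat tissue releases, and 10 of their genes are described here in subcutaneous white adipose tissue (sWAT) of mice with and without GDF15. They were chosen by gene symbol: Adipoq, Lep, Retn, Cfd, Rbp4, Nampt, Rarres2, Apln, Nrg4 and Sfrp5. These are 10 of 19175 genes in the expression table, and all 10 were among the 14982 genes that passed the filter on low counts and were tested. The study asked what loss of GDF15 does to the gene expression of sWAT in each sex. GDF15 is a secreted protein induced by cell stress that acts on food intake through a receptor in the hindbrain. RNA-Seq was carried out on sWAT of 24 mice aged 20 weeks, 6 per group: female Gdf15-KO, female WT, male Gdf15-KO and male WT mice.

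All mice came from crosses of heterozygotes on a mixed background of C57BL/6 and another inbred strain, ate standard chow ad libitum and were killed at lights off, and the WT mice were littermates of the Gdf15-KO mice. The knockout is whole body, so a change in sWAT need not start in fat. Gdf15 itself (chr8:71082038-71091537, minus strand, GRCm39) checked the genotype labels. It gave 3 counts in all over the 6 female Gdf15-KO mice, against 73 over the 6 female WT mice. The male groups gave 4 counts in Gdf15-KO and 135 in WT mice, and no Gdf15-KO mouse reached the level of any WT mouse of its sex. Between 22521358 and 24500575 expected counts (estimated read numbers per gene) were summed per mouse, and the 10 adipokines took 0.507 to 1.46% of them. P-values below measure the spread between these mice, whose litters are not given.

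White adipocytes store triglyceride and release hormones that report on that store. Leptin, the product of Lep, acts on the hypothalamus to limit food intake and rises in blood with fat mass, whereas adiponectin, the product of Adipoq, improves insulin action in liver and muscle and falls in blood with obesity. The other 8 products differ in kind: a protease of the complement pathway, a retinol carrier, an enzyme of NAD synthesis, a chemoattractant, a WNT inhibitor and peptide ligands of cell surface receptors. Some come almost only from adipocytes, and others also from endothelium, immune cells or liver.

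Positions are on GRCm39 and every member is a protein-coding gene. Adipoq lies at chr16:22964106-22976810 (plus strand), Lep at chr6:29060216-29073877 (plus), Retn at chr8:3705324-3710689 (plus), Cfd at chr10:79726668-79728496 (plus) and Rbp4 at chr19:38105066-38113754 (minus). Nampt lies at chr12:32869544-32903368 (plus), Rarres2 at chr6:48546630-48549762 (minus), Apln at chrX:47114019-47123775 (minus), Nrg4 at chr9:55121336-55234128 (minus) and Sfrp5 at chr19:42186410-42190691 (minus). Retn is on the chromosome that carries the Gdf15 deletion, 67.4 Mb from it.

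RefSeq promoter sequences (GRCm38.p6) were matched for 9 of the 10 members, all but Rarres2, with 2 start sites for Rbp4 and 10 promoters in all. The 120 bases before the start are shown for Lep and Adipoq, the main adipocyte hormones, for the TATA-box start of Rbp4 and for Sfrp5, whose level differed most between the sexes. Capitals mark the letters of a searched motif on either strand.
Lep, chr6:29060101-29060220, plus strand: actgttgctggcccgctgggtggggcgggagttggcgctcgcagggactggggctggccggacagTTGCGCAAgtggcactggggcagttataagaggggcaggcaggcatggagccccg
Adipoq, chr16:23146416-23146535, plus strand: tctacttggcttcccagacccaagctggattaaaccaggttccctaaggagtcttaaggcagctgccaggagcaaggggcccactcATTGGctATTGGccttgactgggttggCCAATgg
Rbp4, chr19:38124812-38124931, minus strand: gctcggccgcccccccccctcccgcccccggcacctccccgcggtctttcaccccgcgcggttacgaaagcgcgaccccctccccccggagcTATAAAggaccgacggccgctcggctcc
Sfrp5, chr19:42202253-42202372, minus strand: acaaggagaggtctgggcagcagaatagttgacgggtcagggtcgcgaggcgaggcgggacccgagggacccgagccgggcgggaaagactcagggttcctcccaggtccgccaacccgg

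The Lep promoter holds TTGCGCAA, the palindrome bound by C/EBP factors, 55 to 48 bases before the start, and 0.164% of 32851 RefSeq promoters hold these letters within 250 bases before their start. In Adipoq the capitals are CCAAT boxes, CCAAT or its complement ATTGG, the nearest 7 to 3 bases before the start; 33.8% of promoters hold one. The Rbp4 start shown has a TATA box, TATAAA, 28 to 23 bases before it, a motif in 12.4% of promoters. None of the member promoters held the full estrogen response element (0.0639% of all promoters), the androgen response element (0.00913%), the PPAR element, a direct repeat spaced by 1 base (0.0335%), or the clock E-box CACGTG (6.02%). The shorter site AGGTCA, which shares letters with the estrogen and PPAR elements, was in the promoters of Nrg4 and Nampt (14% of all promoters), and AGAACA, one arm of the androgen element, in no member's (16.1%). A match is a description of letters and not of binding.

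Levels between genes are compared per kilobase of the main transcript, as CPM per kb (CPM: counts scaled to library size by TMM). Cfd ranked highest in every group, at 5465 ± 596 CPM per kb in female Gdf15-KO, 5794 ± 1689 in female WT, 7559 ± 2161 in male Gdf15-KO and 7400 ± 1806 in male WT mice (SD, n = 6 each). Adipoq came next, at 1047 ± 74.8, 1158 ± 174, 1344 ± 278 and 1320 ± 162 CPM per kb in the same groups, and Retn followed. Below these the order was Rbp4, Lep, Rarres2, Nrg4, Nampt, Sfrp5 and Apln in females of both genotypes, and in males of both genotypes Rarres2 stood above Lep. Apln was lowest, at means of 2.65 to 3.25 CPM per kb. The ranges of Lep and Rarres2 overlapped in every group, so their order is not separated by the spread between mice. Overlap also held for Nrg4 and Nampt in every group but male Gdf15-KO mice, for Sfrp5 and Apln in both female groups, for Rbp4 and Rarres2 in both male groups, for Rbp4 and Lep in female Gdf15-KO mice, and for Retn and Rbp4 and for Nampt and Sfrp5 in male Gdf15-KO mice.

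**Figure D1:**
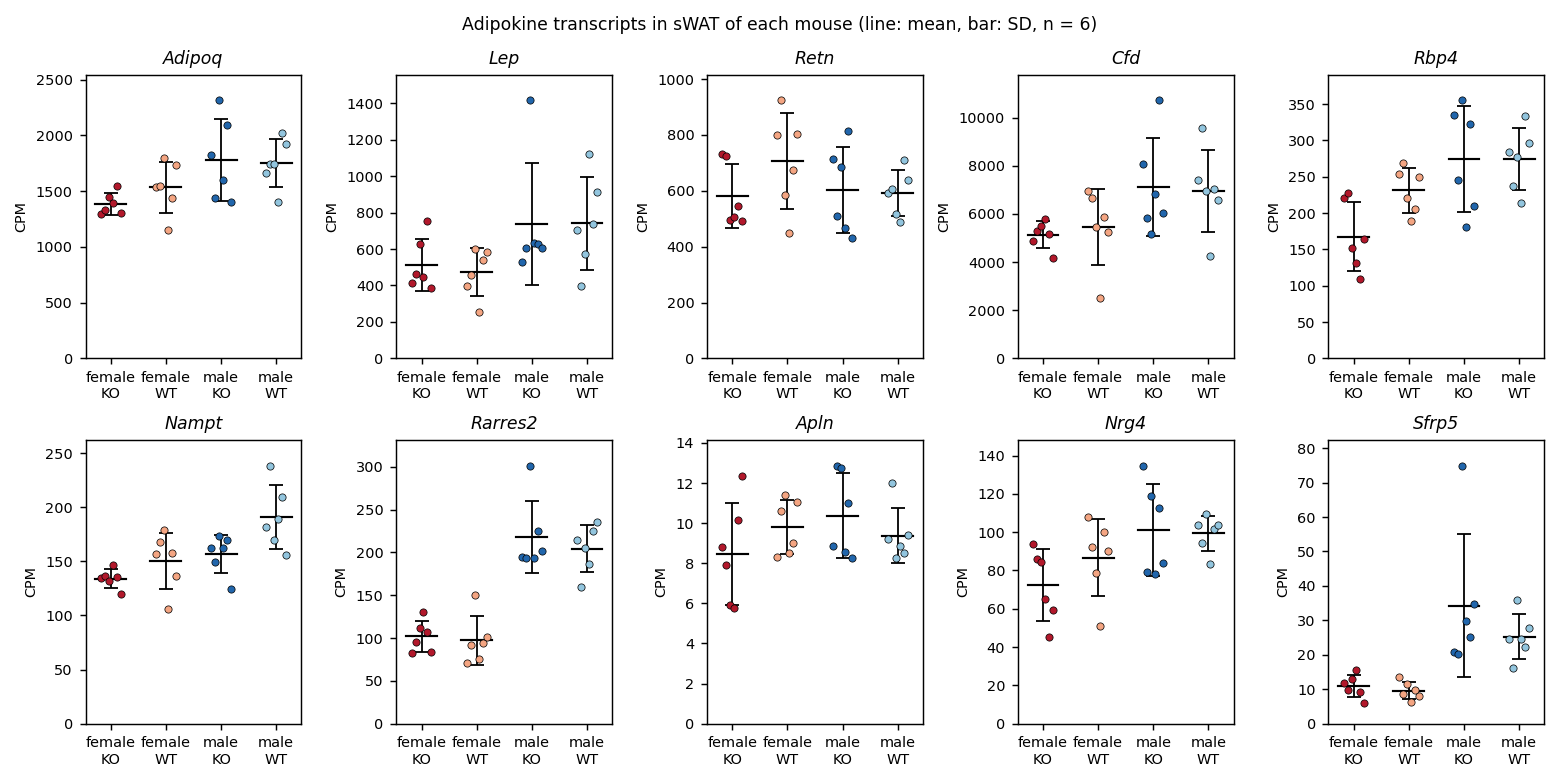
Level of each adipokine in CPM (vertical axis) in every mouse of the 4 groups, with the mean as a line and the SD as a bar (n = 6). Rarres2 and Sfrp5 show female groups below all males, while the Gdf15-KO and WT points overlap in every panel.

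Adiponectin and leptin are the classic adipocyte hormones. Adipoq had 1291, 1364 and 1547 CPM (lowest, median and highest mouse) in female Gdf15-KO and 1149, 1541 and 1795 CPM in female WT mice. Male sWAT had 1406, 1712 and 2314 CPM of Adipoq in Gdf15-KO and 1404, 1742 and 2018 CPM in WT mice. The female Gdf15-KO mice lay close together (coefficient of variation 7.15%, against a median of 12% over all genes in that group), and 4 of the 6 were below every male Gdf15-KO mouse. Lep had 387, 455 and 751 CPM in female Gdf15-KO and 254, 499 and 603 CPM in female WT mice. In males Lep had 528, 616 and 1416 CPM in Gdf15-KO and 396, 721 and 1120 CPM in WT mice. Lep varied far more between mice of 1 group than Adipoq, with coefficients of variation of 27.9 to 45.5%, and all groups overlapped.

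Resistin, the product of Retn, is an adipocyte hormone in mice that impairs insulin action. Retn had 492.7, 527 and 732 CPM in female Gdf15-KO and 451, 737 and 924 CPM in female WT mice. It had 432, 598 and 814 CPM in male Gdf15-KO and 487, 600.0 and 711 CPM in male WT mice. The 4 groups overlapped, and none of the 6 female Gdf15-KO mice exceeded the median of the female WT mice. Cfd encodes adipsin (complement factor D), the protease that starts the alternative complement pathway. It had 4186, 5230 and 5789 CPM in female Gdf15-KO and 2500, 5663 and 6934 CPM in female WT mice. Male levels of Cfd were 5146, 6433 and 10716 CPM in Gdf15-KO and 4252, 6982 and 9549 CPM in WT mice, again with overlap between all groups.

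Rbp4 encodes the plasma retinol carrier, made mainly by liver and in smaller amounts by fat. It had 110, 158 and 228 CPM in female Gdf15-KO and 189, 235 and 268 CPM in female WT mice. Male Rbp4 levels were 180, 284 and 355 CPM in Gdf15-KO and 214, 281 and 334 CPM in WT mice. Of the 6 female Gdf15-KO mice, 4 were below every female WT mouse and 4 below every male Gdf15-KO mouse. Nampt encodes the rate-limiting enzyme of NAD salvage, which is also secreted. It had 119, 135 and 147 CPM in female Gdf15-KO and 106, 157 and 179 CPM in female WT mice. In males it had 124, 162 and 173 CPM in Gdf15-KO and 156, 185 and 238 CPM in WT mice. No Gdf15-KO mouse of either sex exceeded the Nampt median of the WT mice of its sex.

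Rarres2 encodes chemerin, a chemoattractant for leukocytes that also acts on adipocyte differentiation. It had 82.0, 102 and 131 CPM in female Gdf15-KO and 193, 198 and 301 CPM in male Gdf15-KO mice. WT mice had 70.8, 93 and 150 CPM in females and 159, 210 and 236 CPM in males. Sfrp5 encodes a secreted protein that binds WNT ligands away from their receptors. It had 5.99, 10.9 and 15.5 CPM in female Gdf15-KO and 20.2, 27.5 and 74.9 CPM in male Gdf15-KO mice. The WT values of Sfrp5 were 6.31, 9.27 and 13.4 CPM in females and 16.1, 24.5 and 35.9 CPM in males. For both genes every female lay below every male of the same genotype, while the genotypes overlapped within each sex.

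Nrg4 encodes a neuregulin, a ligand of ERBB receptors that in mice acts on the liver. It had 45.3, 74.6 and 93.9 CPM in female Gdf15-KO and 50.9, 91.4 and 108 CPM in female WT mice. Male Nrg4 levels were 78.4, 98.1 and 135 CPM in Gdf15-KO and 83.6, 103 and 110 CPM in WT mice. All neighbouring groups overlapped, with 3 female Gdf15-KO mice below every male Gdf15-KO mouse. Apln encodes apelin, a peptide that acts on blood vessels and heart. It had 5.76, 8.37 and 12.4 CPM in female Gdf15-KO and 8.33, 9.81 and 11.4 CPM in female WT mice. Male sWAT had 8.24, 9.95 and 12.9 CPM of Apln in Gdf15-KO and 8.27, 9.01 and 12 CPM in WT mice, so that no group stood apart.

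Loss of GDF15 was not accompanied by a called change of any adipokine in either sex. In females the edgeR quasi-likelihood test (Benjamini-Hochberg adjusted p under 0.05 over all tested genes) called 0 of 10, where 0.194% of all tested genes were called. Over the 10 genes, 7 estimates were negative and 3 positive, with a median log2 fold change of -0.16. In males 0 of 10 were called, against 0.2% of all tested genes, with 2 negative and 8 positive estimates and a median of 0.03. The median over all tested genes was close to 0 in both sexes (-0.005 in females and 0.001 in males). Without adjustment, 1 adipokine in each sex had p under 0.05, against 10.9% of all tested genes for females and 5.47% for males. DESeq2 and limma-voom also called none in either sex.

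The gene with the smallest p in females was Rbp4, with a log2 fold change of -0.46 (SE 0.18, 95% interval -0.83 to -0.10, adjusted p = 0.357 by edgeR). In males it was Nampt, at -0.28 (SE 0.11, interval -0.51 to -0.05, adjusted p = 0.771 by edgeR). Neither passed the test, although their intervals taken alone lay below 0. The corresponding values were 0.00 for Rbp4 in males (SE 0.18) and -0.17 for Nampt in females (SE 0.11). For Adipoq the 95% interval of the fold was 0.758 to 1.08 in females and 0.853 to 1.21 in males. The interval for Lep was wider, a fold of 0.748 to 1.58 in females and 0.683 to 1.44 in males, and so held moderate changes in either direction. Sfrp5 had the largest positive estimate in males, 0.44 (interval -0.13 to 1.02, adjusted p = 0.942 by edgeR), which was 0.07 without male Gdf15-KO mouse 15.

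**Figure D2:**
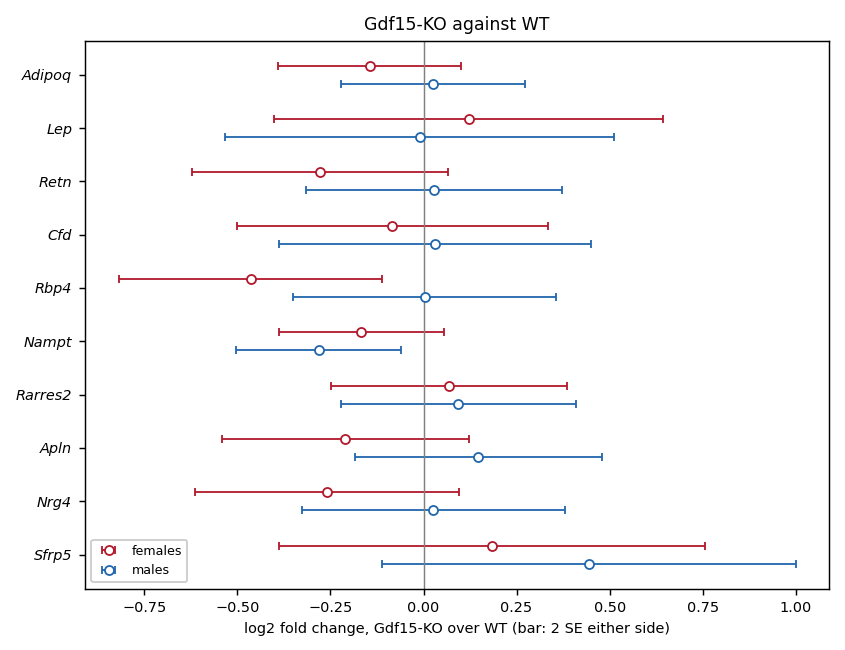
Log2 fold change of Gdf15-KO over WT (horizontal axis) for each adipokine in females and males, with bars of 2 SE on either side and filled points for an adjusted p under 0.05. No point is filled, and Rbp4 in females (-0.46) and Nampt in males (-0.28) lie farthest below 0.

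No pair of genotype groups was separate: 0 of 10 adipokines had Gdf15-KO and WT mice that did not overlap, where 1.03% of all tested genes did so in females and 0.481% in males. The difference of the knockout effect between the sexes was called for 0 of 10 adipokines, and 0% of all tested genes were called by edgeR. None of the 10 reached an unadjusted p under 0.05 for it, against 3.48% of all tested genes, and DESeq2 and limma-voom called none of the 10. Rbp4 was nearest, with a difference of -0.47 (females minus males, SE 0.25, interval -0.99 to 0.05, adjusted p = 0.998 by edgeR). Of marker lists for other cell types, 6 of 6 tested erythrocyte markers had an unadjusted p under 0.05 and were lower in female Gdf15-KO mice (none called by edgeR), with summed levels of 242 to 442 CPM in female Gdf15-KO and 337 to 1077 CPM in female WT mice. The highest of these sums was that of female WT mouse 4, and the next was 547 CPM. Brown and beige adipocyte markers had negative estimates for 7 of 7 in both sexes (median log2 fold change -0.59 in females and -0.94 in males). Of these 7, edgeR called 1 lower in female Gdf15-KO mice (Cidea, named after its values were seen) and 0 in males, where 3 had an unadjusted p under 0.05. Over all tested genes, edgeR called 0.194% in females and 0.2% in males, and 10.9% and 5.47% had an unadjusted p under 0.05. Of the 14 adipocyte markers, 1 was called lower in male Gdf15-KO mice and 0 in females (3 at an unadjusted p under 0.05). The part of these markers in the adipokine values was not tested. Female WT mouse 4 had the lowest value of its group for 8 of the 10 adipokines, and without it the estimates for female Rbp4 and Lep were -0.52 and -0.0059. In its group it also had the highest fibroblast (20693 CPM) and mammary (2220 CPM) marker sums and the lowest adipocyte sum (13341 CPM). With any 1 mouse left out, female estimates ran from -0.38 to -0.18 for Retn, -0.37 to -0.16 for Nrg4, -0.25 to -0.11 for Nampt and -0.22 to -0.09 for Adipoq, none called.

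The ratio of Lep to Adipoq, which in blood follows fat mass, was taken per mouse after the data were seen. Its median was 0.334 in female Gdf15-KO and 0.316 in female WT mice (adjusted p = 0.29, exact permutation test over 924 splits, two-sided, adjusted over 4 comparisons). Male medians were 0.409 in Gdf15-KO and 0.394 in WT mice (adjusted p = 0.911, same exact permutation test). Between the sexes the fold was 0.912 in Gdf15-KO mice (exact permutation adjusted p = 0.684) and 0.739 in WT mice (exact permutation adjusted p = 0.29). None of the 4 comparisons passed the test.

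More adipokines were called between the sexes than between the genotypes, a contrast that also held over all tested genes. Chemerin and Sfrp5 transcripts were lower in females than in males in both genotypes, and no adipokine was called higher in females. In Gdf15-KO mice edgeR called 5 of 10 adipokines (Rarres2, Sfrp5, Rbp4, Adipoq and Nrg4), all lower in females, where 32% of all tested genes were called. In WT mice it called 3 of 10 (Rarres2, Sfrp5 and Nampt), all lower in females, where 24.1% of all tested genes were called. The median log2 fold change of the 10 was -0.48 in Gdf15-KO and -0.29 in WT mice, against -0.02 and -0.01 over all tested genes. Among all called genes, 2656 were higher and 2137 lower in females among Gdf15-KO mice, and 2247 and 1367 among WT mice. Groups did not overlap for 2 of 10 adipokines in each genotype, against 14.4% of all tested genes in Gdf15-KO and 11.9% in WT mice. In bulk tissue, fewer cells of a type and less RNA per cell cannot be told apart.

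Rarres2 in females was 0.468 of its male level in Gdf15-KO mice (log2 fold change -1.10, SE 0.16, adjusted p = 1.36e-05 by edgeR). In WT mice it was 0.476 of the male level (-1.07, SE 0.16, adjusted p = 1.83e-05 by edgeR). Sfrp5 was 0.318 of the male level in Gdf15-KO females (-1.65, SE 0.29, adjusted p = 0.00012 by edgeR) and 0.381 in WT females (-1.39, SE 0.29, adjusted p = 0.000849 by edgeR). These calls held with each mouse left out in turn. Without female WT mouse 4 the WT values were -1.01 for Rarres2 and -1.30 for Sfrp5. The Gdf15-KO and the WT comparison use different mice.

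Calls for the other members were made in 1 genotype each, and the difference between genotypes was not called for any of them. Rbp4 was lower in females among Gdf15-KO mice (-0.71, SE 0.18, fold 0.61, adjusted p = 0.00371 by edgeR), and had -0.24 among WT mice (adjusted p = 0.339 by edgeR). Adipoq had -0.36 among Gdf15-KO mice (SE 0.12, adjusted p = 0.0285 by edgeR) and -0.19 among WT mice (adjusted p = 0.283 by edgeR). Nrg4 had -0.48 among Gdf15-KO mice (SE 0.18, adjusted p = 0.0396 by edgeR) and -0.20 among WT mice (adjusted p = 0.447 by edgeR). Nampt had -0.23 among Gdf15-KO mice (adjusted p = 0.123 by edgeR) and was lower in females among WT mice (-0.34, SE 0.11, adjusted p = 0.0271 by edgeR). The groups behind these calls overlapped. Rbp4 kept its call with each mouse left out. The Adipoq call was lost without female Gdf15-KO mouse 13 or 18 or male Gdf15-KO mouse 15 or 17 (adjusted p = 0.0528 to 0.0784 by edgeR). The Nrg4 call was lost without female Gdf15-KO mouse 16, 17 or 18 or male Gdf15-KO mouse 13, 15 or 17 (0.0736 to 0.0997), and the Nampt call without female WT mouse 4 or male WT mouse 2 or 5 (0.0514 to 0.0675). With all mice kept, the Adipoq call was lost when counts were scaled by library size alone (adjusted p = 0.0699 by edgeR), and those of Nrg4 (0.0687) and Nampt (0.0825) when edgeR was fitted to the groups compared alone.

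Lep in females had log2 fold changes of -0.52 among Gdf15-KO mice (interval -1.06 to 0.02, adjusted p = 0.138 by edgeR) and -0.65 among WT mice (interval -1.19 to -0.11, adjusted p = 0.0757 by edgeR). It did not pass the test in either genotype, but without male WT mouse 2 the WT value was -0.79 with an adjusted p of 0.0299 by edgeR. DESeq2 called Lep lower in WT females, with adjusted p = 0.0455 in a fit of all 4 groups and 0.0331 on the groups compared alone. On the groups compared alone, Nampt among Gdf15-KO mice was also called lower in females, with adjusted p = 0.0221 by DESeq2 and 0.0460 by edgeR. Cfd had -0.47 among Gdf15-KO mice (adjusted p = 0.0921 by edgeR) and -0.35 among WT mice (adjusted p = 0.235 by edgeR), and DESeq2 on the Gdf15-KO groups alone called it (adjusted p = 0.0157). Retn had -0.05 among Gdf15-KO and 0.25 among WT mice (adjusted p = 0.854 and 0.305 by edgeR). Apln had -0.29 among Gdf15-KO and 0.07 among WT mice (adjusted p = 0.192 and 0.801 by edgeR). Leaving out a single mouse also brought Apln (female Gdf15-KO mouse 18, adjusted p = 0.0447) and Nampt (male Gdf15-KO mouse 18, adjusted p = 0.0453) past the threshold among Gdf15-KO mice in edgeR.

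**Figure D3:**
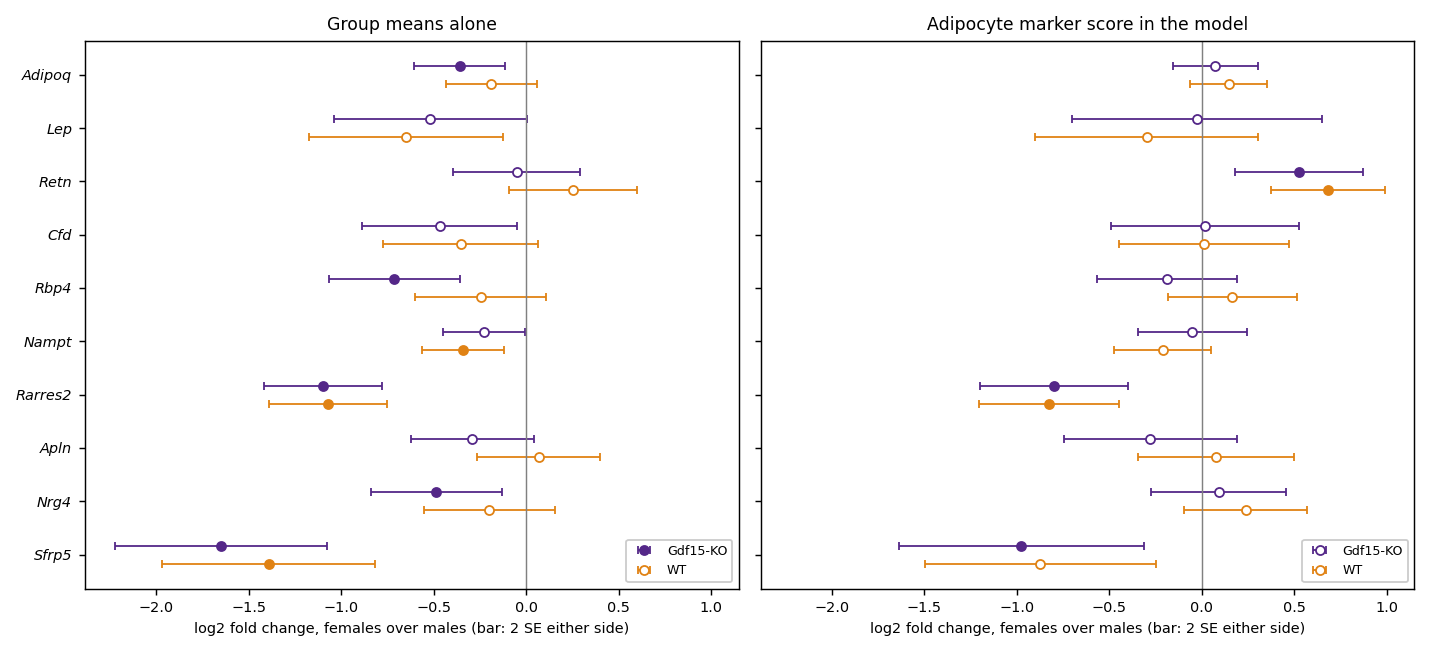
Log2 fold change of females over males (horizontal axis) for each adipokine in Gdf15-KO and WT mice, with bars of 2 SE on either side and filled points for an adjusted p under 0.05; the left panel uses group means alone and the right panel adds the adipocyte marker score. Rarres2 stays filled and negative in both panels, while Retn is filled and positive only on the right.

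Most of the adipocyte markers were also lower in female sWAT, and the adipokine values have to be read beside them. The 14 adipocyte markers, none of them an adipokine and none at 0, summed to 13896 to 18360 CPM in female Gdf15-KO and 17292 to 28776 CPM in male Gdf15-KO mice. WT sums were 13341 to 21382 CPM in females and 21221 to 27602 CPM in males. Of the 14, edgeR called 10 lower in females among Gdf15-KO mice (median log2 fold change -0.54) and 8 lower among WT mice (median -0.42). Over all tested genes 32% and 24.1% were called in either direction. Mammary and epithelial markers moved the other way: 13 of 13 were called higher in females in both genotypes, with sums of 984 to 1401 CPM in female Gdf15-KO and 7.61 to 11.1 CPM in male Gdf15-KO mice. In WT mice these sums were 1242 to 2220 CPM in females and 7.16 to 21.9 CPM in males. Erythrocyte markers were called lower in females for 6 of 6 among Gdf15-KO mice and 0 of 6 among WT mice (0 also at an unadjusted p under 0.05). Skeletal muscle markers summed to anything between 56.9 and 35721 CPM per mouse, with 0 of 12 called in either genotype (at an unadjusted p under 0.05, 0 among Gdf15-KO and 2 among WT mice).

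Part of each list of nerve, vessel and macrophage markers was also called lower in females. Over all tested genes, 32% were called by sex among Gdf15-KO and 24.1% among WT mice. Of 8 Schwann cell markers, 4 were called lower and 1 higher in each genotype, with medians of -0.37 in Gdf15-KO and -0.55 in WT mice. Their sums were 408 to 599 CPM in female and 585 to 786 CPM in male Gdf15-KO mice, and 443 to 595 CPM in female and 532 to 785 CPM in male WT mice. Of 10 endothelial markers, 4 were called lower and 1 higher in females among Gdf15-KO mice and 3 lower among WT mice, and their sums overlapped between the sexes. Of 14 macrophage markers, 3 were called lower among Gdf15-KO and 2 among WT mice, both below the share of all tested genes, and their sums overlapped too. With group means removed, the Pearson r of Adipoq with the endothelial markers was 0.73 over the 24 mice. That of Sfrp5 with the Schwann cell markers was 0.48 over the 24 mice, 0.92 in the 12 females and 0.16 in the 12 males. Both pairs were picked from all adipokines and marker lists after their values were seen, so they overstate the likeness. Over the 24 mice Sfrp5 also had r = 0.56 with brown and beige adipocyte markers and 0.50 with skeletal muscle markers. The Schwann cell likeness was not particular to Sfrp5: Cfd had r = 0.52 with these markers, 0.54 in the females and 0.51 in the males. The part of these cell types in the adipokine values was not tested.

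With the adipocyte marker score (mean log2 level of the 14 markers) in the model, edgeR called 3 of 10 adipokines among Gdf15-KO mice, where 16.5% of all tested genes were called, and 2 of 10 among WT mice, where 17.8% were called. Rarres2 kept its lower female level, at -0.80 among Gdf15-KO mice (SE 0.20, adjusted p = 0.00867 by edgeR) and -0.83 among WT mice (SE 0.19, adjusted p = 0.00419 by edgeR). No macrophage score was fitted. With group means removed, Rarres2 had r = 0.54 with macrophage markers over the 24 mice (0.74 in females, 0.14 in males). Its r with the adipocyte score was 0.40 (0.17 in females, 0.69 in males). Sfrp5 was called at -0.98 among Gdf15-KO mice (adjusted p = 0.0473 by edgeR) and had -0.87 among WT mice (adjusted p = 0.0556 by edgeR). Retn was called higher in females, at 0.53 among Gdf15-KO mice (SE 0.17, adjusted p = 0.0402 by edgeR) and 0.68 among WT mice (SE 0.15, adjusted p = 0.00364 by edgeR). The estimates of Adipoq, Nrg4 and Rbp4 moved to 0.07, 0.09 and -0.19 among Gdf15-KO mice, and that of Nampt to -0.21 among WT mice, none of them called. The score itself differed between the sexes by -0.55 among Gdf15-KO and -0.46 among WT mice on the log2 scale, with little overlap. How much of each adipokine's difference goes with adipocyte content and how much with sex therefore cannot be told apart.

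Across the 24 mice, with group means removed, the adipokines fell into loose groups; these correlations are descriptions of shared libraries and tissue make-up. Retn, Rbp4 and Nrg4 varied together, with Pearson r of 0.80 for Retn and Rbp4 (Spearman rho 0.82), 0.78 for Rbp4 and Nrg4 (rho 0.80) and 0.73 for Retn and Nrg4 (rho 0.72). This held in the 12 females (r = 0.72 to 0.75) and in the 12 males (r = 0.79 to 0.88). Lep went with Rarres2, at r = 0.67 (rho 0.73), 0.64 in females and 0.76 in males. Other pairs were unlike in the 2 sexes. Adipoq and Lep had r = 0.88 in females and 0.27 in males, and Lep and Cfd had r = 0.61 in females and -0.72 in males. Without the 2 mice farthest from the median, r over all mice was 0.20 for Adipoq and Lep, against 0.50 with them, and 0.22 for Lep and Cfd, against -0.11, so that both rest in part on those mice. The male r of Lep and Cfd includes male Gdf15-KO mouse 15 and male WT mouse 4, each with the highest Lep and the lowest Cfd of its group. The differences between the sexes in r were not tested. With the adipocyte marker score, r was highest for Adipoq (0.79), Retn (0.73) and Nrg4 (0.70) and lowest for Apln (0.04), with Lep at 0.40.

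**Figure D4:**
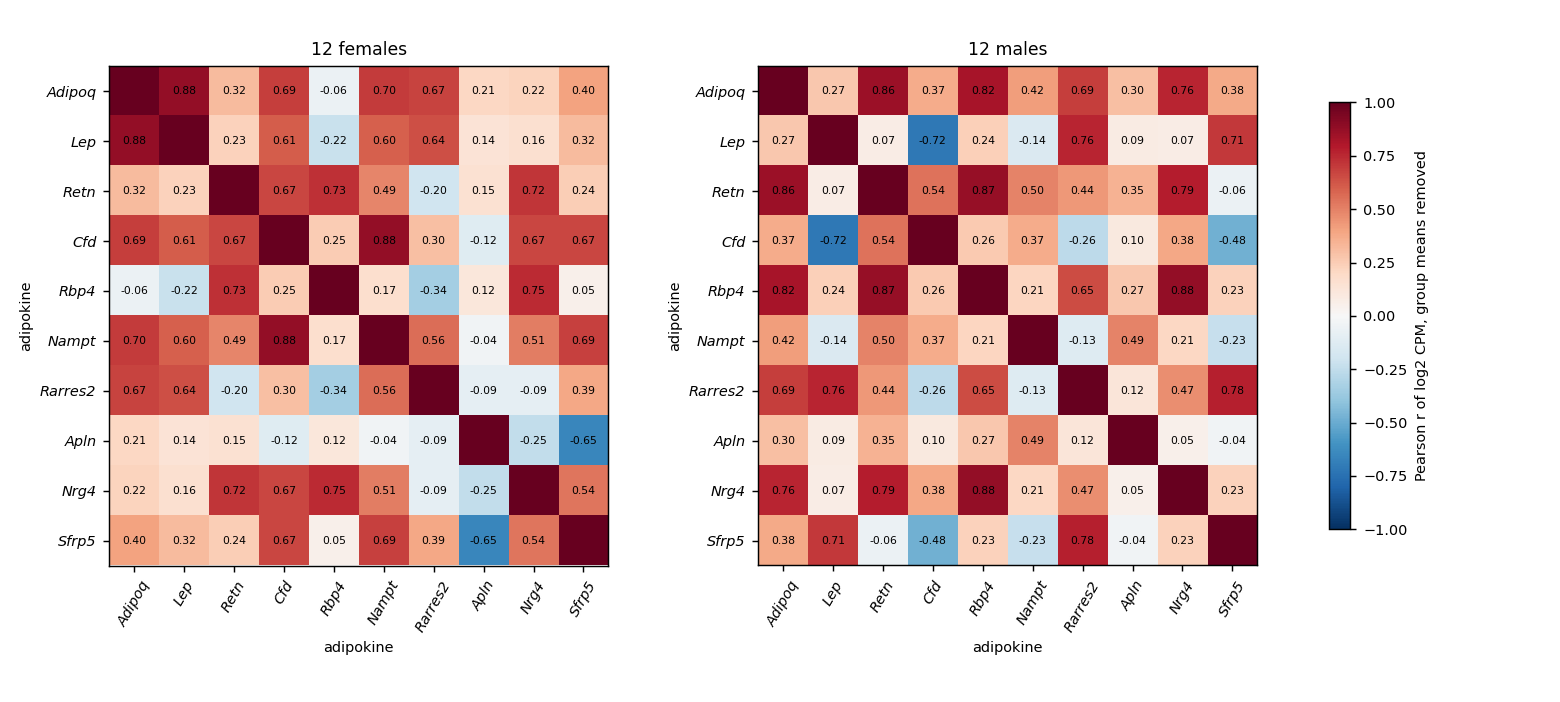
Pearson r of log2 CPM between each pair of adipokines, with group means removed, in the 12 females (left) and the 12 males (right); red is positive and blue negative. Retn, Rbp4 and Nrg4 are red with each other in both panels, whereas Lep and Cfd have 0.61 in females and -0.72 in males.

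Among 13442 other genes of at least 1 CPM, the one most like Adipoq over the 24 mice was Prnp, the prion protein gene (r = 0.94, rho 0.94). For Lep it was Tshr, the thyrotropin receptor (r = 0.91, rho 0.85), and for Nrg4 it was Pcx, pyruvate carboxylase (r = 0.91, rho 0.89), with Acaca, the acetyl-CoA carboxylase of de novo lipogenesis, among its 3 nearest (r = 0.90). Retn was most like Emc6 (r = 0.90), a subunit of the membrane protein insertion complex, Rbp4 most like Aldh1a7 (r = 0.90) and Rarres2 most like Dpt (r = 0.90), the matrix protein dermatopontin. Sfrp5 was nearest to Pea15a (r = 0.89), Cfd to Itpka (r = 0.91) and Nampt to Fmo1 (r = 0.82). Apln had no close match, with r = 0.65 for Ccdc22. Without the 2 mice farthest from the median, these leading r lay between 0.69 and 0.91. Because they were the highest of 13442, they overstate the likeness.

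Genes around the adipokines gave no called change with loss of GDF15 in either sex in edgeR: this held for the receptors and for the other adipokine-related lists named below, with 0 to 3 genes per list for females and 0 to 2 for males under 0.05 before adjustment of p. By sex, 4 of 13 tested receptors were called among Gdf15-KO mice (3 higher and 1 lower in females, list median 0.02) and 3 among WT mice, all higher (median -0.01). Over all tested genes, 32% were called by sex among Gdf15-KO and 24.1% among WT mice, and neither receptor count exceeded that share. Erbb3, a receptor of the neuregulin system, averaged 69.0 CPM in female and 7.95 CPM in male Gdf15-KO mice (log2 fold change 3.12, adjusted p = 1.13e-12 by edgeR), and 80.8 CPM in female and 8.59 CPM in male WT mice. Stra6, the cell surface receptor of the RBP4 protein, was higher in females in both genotypes (1.37 and 1.99 in Gdf15-KO and WT mice), though with the adipocyte score neither value was called (adjusted p = 0.795 and 0.341 by edgeR), and the call among Gdf15-KO mice was lost without female Gdf15-KO mouse 17 or male Gdf15-KO mouse 15 or 17 (adjusted p up to 0.0570 by edgeR). The adiponectin receptors Adipor1 and Adipor2, the leptin receptor Lepr and the chemerin receptor Cmklr1 were named after their values were seen, and were not called in either genotype, with log2 fold changes between -0.20 and 0.14.

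Of 10 tested genes for adiponectin folding and secretion, 3 were called lower in females among Gdf15-KO mice (list median -0.13) and 2 among WT mice (-0.09), with none higher. Neither count exceeded the share of all tested genes called, 32% among Gdf15-KO and 24.1% among WT mice. Plod1, a lysyl hydroxylase, had -0.36 among Gdf15-KO and -0.29 among WT mice, and Gstk1, also known as DsbA-L, which promotes adiponectin assembly, -0.45 and -0.37. With the adipocyte score in the model neither gene was called in either genotype. Of 10 C1q/TNF family genes, the paralogs of adiponectin, 0 were called among Gdf15-KO and 1 among WT mice (C1qtnf3, higher in females at 1.86), with medians of 0.01 and 0.11; at an unadjusted p under 0.05 there were 2 among Gdf15-KO mice. The resistin relatives Retnla and Retnlg were not called between the sexes in either genotype (0 of 2, also at an unadjusted p under 0.05), and Retnla averaged 323 CPM in female and 311 CPM in male Gdf15-KO mice. In the alternative complement pathway, 1 of 9 genes was called higher and 2 lower in females in each genotype (medians 0.00 and -0.08), beside the same shares of 32% and 24.1%. Cfb, the factor that adipsin cleaves, averaged 269 CPM in female and 452 CPM in male Gdf15-KO mice (-0.75), and 255 CPM in female and 475 CPM in male WT mice (-0.90), while Hc, complement component C5, was higher in females (4.09 and 4.12). With the adipocyte score, C1qtnf3 among WT mice and Cfb among Gdf15-KO mice were not called, whereas Cfb among WT mice and Hc in both genotypes were.

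NAD salvage genes other than Nampt were called lower in females for 3 of 14 among Gdf15-KO mice (median -0.09) and 2 of 14 among WT mice (-0.10), among them Nnmt (-0.58 and -0.70) and Cd38 (-0.46 and -0.40), both of which use up nicotinamide or NAD. Both counts lay below the shares of all tested genes called, 32% among Gdf15-KO and 24.1% among WT mice. The Cd38 call among WT mice was lost without female or male WT mouse 4 (adjusted p up to 0.0653 by edgeR). Of 15 retinoid transport and retinoic acid genes other than Rbp4, 7 were called higher and 2 lower in females among Gdf15-KO mice (median 0.28, with 6 of 15 estimates negative), where 32% of all tested genes were called. Among WT mice 7 were higher and 0 lower (median 0.51), where 24.1% of all tested genes were called. Lrat, which esterifies retinol, had 1.05 among Gdf15-KO and 1.0 among WT mice. With the adipocyte score, Nnmt was not called in either genotype, nor was Lrat among Gdf15-KO mice. Of 20 WNT ligands, receptors and inhibitors other than Sfrp5, 8 were called higher and 3 lower in females among Gdf15-KO mice (median 0.19), and 8 higher and 2 lower among WT mice (median 0.30), beside the same 32% and 24.1% of all tested genes. Dkk3 had 1.63 and 1.69 and the receptor Fzd7 1.34 and 1.25, and Wnt4, a mammary gland WNT ligand, 5.21 and 4.18.

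In the apelin and neuregulin system 4 of 8 genes were called higher and 1 lower in females among Gdf15-KO mice (median 0.41), and 3 higher and 1 lower among WT mice (0.45). Over all tested genes 32% were called among Gdf15-KO and 24.1% among WT mice. Erbb2 had 1.67 and 1.72, and Ace, the angiotensin-converting enzyme, was lower at -0.89 and -0.94. Of 33 other secreted factors of fat, 4 were called higher and 6 lower in females among Gdf15-KO mice (median 0.04), and 5 higher and 3 lower among WT mice (-0.03), close to those shares in both genotypes. Hp, the plasma protein haptoglobin, averaged 259 CPM in female and 1410.4 CPM in male Gdf15-KO mice (-2.44), and 247 CPM in female and 1356 CPM in male WT mice (-2.46). Gdf10 was lower at -1.08 and -1.11, and Slit2 higher at 2.53 and 2.72. Among 19 regulators of adipokine genes, 2 were called higher and 3 lower among Gdf15-KO mice (median 0.02) and 2 higher and 1 lower among WT mice (-0.08), with Esr1, the estrogen receptor, at 0.77 and 0.83 and Clock at 0.37 and 0.25, both higher in females. The regulator counts lay below the shares of all tested genes in both genotypes. The mammary and adipocyte markers given above moved with sex beside all of these lists, and their part in the calls was not tested gene by gene except through the adipocyte score.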

How the data were processed

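Per the submitters' processing notes and the study's methods, BGI trimmed paired reads of total sWAT RNA, aligned them with Bowtie2 2.2.5 to GRCm39 and counted them with RSEM 1.2.8, and the annotation release and strand setting are not given in the sources used here. The authors deposited expected counts per gene (estimated counts, not normalized) for 19175 genes and 24 mice, and 0 columns lacked a sample. All 240 adipokine values were whole within 0.005. No 2 samples were duplicates. The authors' fold changes were not used.

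Expected counts were rounded, filtered by filterByExpr (minimum count 10, minimum total 15), TMM-scaled and tested in 1 model of the 4 group means with edgeR 4.0.16, limma 3.58.1 and R 4.3.3. Depth limits low genes: Apln, the lowest member, still summed to 1265 counts or more per group. Mice were taken as independent: replicate numbers recur in both sexes but mark no shared animal or batch in the labels. The members and gene lists were chosen with earlier results of these data known. Genes named from the lists were taken from up to 4 called members with the smallest p per comparison and from families of 4 or fewer, and the likeness ranking used a mean of at least 1 CPM in every group. Scores are means of log2 CPM with a prior count of 2. The test was checked on simulated data for females against males in WT mice (14919 genes): it recovered 40% of genes changed 1.3-fold, 64% at 1.5-fold, 88% at 2-fold and 98% at 4-fold. Only 50 genes per fold were changed, all in female WT mice. The changed genes were far fewer than those called between the sexes and more than those called between the genotypes. Adjusted p depends on the share of changed genes, so these rates do not give the recovery for the sex comparisons or for the knockout comparisons. Alternatives were DESeq2 1.42.0, limma-voom, other size factors and filters, groups fitted alone, marker scores, a replicate block and leaving out each mouse. The adipocyte-relative values and the Lep to Adipoq ratio were added after the data were seen.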

Additional observations from a re-analysis of the deposited data

Results flagged for a closer look

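Of 40 sets of 6 values (10 adipokines in 4 groups), 4 had a highest mouse whose gap to the next, set against the whole range of the group, was wider than Dixon's 95% limit of 0.625, and chance alone gives about 1 in 20, or 2 of 40. Male Gdf15-KO mouse 15 accounted for 3 of them. Its Lep level was 1416 CPM, with the next mouse at 635 CPM, its Sfrp5 level was 74.9 CPM, with the next at 34.8 CPM, and its Rarres2 level was 301 CPM, with the next at 224 CPM. The same mouse had the highest summed adipocyte markers of all, 28776 CPM, and the lowest B cell markers, 256 CPM. The other was Apln in male WT mouse 2, at 12 CPM with the next mouse at 9.42 CPM.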

How the results depend on the processing

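The count of adipokines called for Gdf15-KO against WT was 0 in females and 0 in males under every alternative run, as it was for the difference between the sexes. Between the sexes, leaving out 1 mouse gave 3 to 6 called adipokines among Gdf15-KO mice (3 without male Gdf15-KO mouse 15 or 17) and 2 to 3 among WT mice. The other alternatives gave 0 to 7 and 0 to 4. Among Gdf15-KO mice DESeq2 on these 2 groups alone called 7, and edgeR with the adipocyte score called 3, where 16.5% of all tested genes were called. With the mammary marker score the count was 0 in both genotypes, but that score does not overlap between the sexes, so its fold changes by sex are not given. The shares of all tested genes under the other settings are not given here. Their counts therefore do not tell a change in the adipokines from a change in all called genes. The cause of the other changes was not tested. Rarres2 was called in both genotypes under all other alternatives, as was Sfrp5 except among WT mice with the adipocyte score.

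Replicate numbers recur in females and males, and their pairing was checked by correlating deviations from the group means. The correlation was over 0.1 in 9 of 12 pairs (-0.56 to 0.40), and 4 of 12 mice correlated best with their own number. This check does not decide whether same-numbered mice shared a batch. They were not treated as pairs because the labels name no shared animal or batch, and a replicate block was run as an alternative. With the replicate block, 3 adipokines were called among WT and 6 among Gdf15-KO mice, Cfd being added, and the knockout effect on Rarres2 differed by 0.0097 between the sexes.

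Signs turned as follows. On the log2 scale, with library size alone they turned for Cfd in females (Gdf15-KO over WT, 0.013), Lep in males (0.0087), Rarres2 in the difference of effects (0.021) and Retn by sex among Gdf15-KO mice (0.029). In limma-voom they turned for Rbp4 (-0.023) and Nrg4 (-0.00054) in males and for the Rarres2 difference of effects (0.0080), and Rbp4 in males had -0.00195 with the sex fitted alone and -0.0067 with the muscle score. The adipocyte score turned Cfd in females (0.069), the differences of effects of Cfd (0.0060) and Rarres2 (0.029), females against males in WT mice for Adipoq (0.14), Cfd (0.0100), Rbp4 (0.16) and Nrg4 (0.24), and among Gdf15-KO mice for Adipoq (0.073), Retn (0.53), Cfd (0.016) and Nrg4 (0.091). Subtracting that score instead gave 0.11 for Nampt among WT mice and 0.21 for Adipoq and 0.055 for Nrg4 among Gdf15-KO mice. The mammary score turned the male knockout effects of Adipoq (-0.056), Lep (0.083), Retn (-0.14), Cfd (-0.16), Rbp4 (-0.14) and Nrg4 (-0.13).

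With 1 mouse left out, the female knockout effect ran from -0.018 to 0.20 for Lep, -0.23 to 0.0037 for Cfd and -0.015 to 0.24 for Rarres2. In males it ran from -0.055 to 0.089 for Adipoq, -0.30 to 0.16 for Lep, -0.076 to 0.11 for Retn, -0.12 to 0.15 for Cfd, -0.074 to 0.11 for Rbp4, -0.012 to 0.15 for Rarres2 and -0.065 to 0.10 for Nrg4. The difference of effects ran from -0.025 to 0.43 for Lep, -0.26 to 0.039 for Cfd, -0.11 to 0.14 for Rarres2 and -0.39 to 0.12 for Sfrp5, and Retn by sex among Gdf15-KO mice from -0.13 to 0.053. None of these was called. The spread between the 6 mice of a group sets the intervals of these genes more than counting error does, and bulk RNA gives no cell type of origin.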
